A study of Mus musculus with 9 samples.

Results

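Transcripts of red blood cells and of macrophages were followed in RNA of cells sorted from mouse forelimb buds at E10.5. The members are 15 erythroid genes and 17 macrophage genes, named by symbol, with earlier results of these data known. Of these 32 genes, 30 have a probe set annotated with exactly 1 gene symbol, 13 erythroid and 17 macrophage, out of 18193 genes with such a probe set among the 45037 probe sets tested. A gene with several such probe sets is given by the one with the highest mean over the 9 arrays. Of the remaining 2 members, the adult beta globin gene Hbb-b1 is covered here only by a probe set shared with other adult beta globin genes, and Ahsp, the alpha globin chaperone, had no entry in the annotation used.

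The study isolated Pax3-expressing muscle progenitor cells by the fluorescence of a GFP sequence targeted to 1 allele of Pax3. There were 3 groups of 3 arrays each. The PAX3-FKHR GFP+ group was sorted from Pax3PAX3-FKHR/GFP embryos and the control GFP+ group from Pax3GFP/+ embryos, and the last group was made of GFP- cells. The PAX3-FKHR GFP+ cells carried the targeted GFP allele together with an allele encoding the PAX3-FKHR fusion protein, a strong form of the Pax3 transcription factor, and the control cells carried the same GFP allele with a wild-type Pax3 allele. Embryos of both genotypes came from Pax3GFP/+; PGK-Cre females crossed with males carrying the conditional Pax3PAX3-FKHR-IRESnlacZ allele, on a C57 BL6/DBA2 background. The fusion protein is encoded by a targeted allele of Pax3, and the cross with PGK-Cre mice made this conditional allele active. Expression of the fusion in blood cells was not tested. No genotype is given with the GFP- samples in the labels. The study's results and statistics take them from Pax3GFP/+ embryos, while its array methods list a Pax3+/+ group. Limb buds of many embryos were pooled by genotype for each sample, so n = 3 counts pools, and nothing in the labels says that equal replicate numbers share a litter or a day. Each value is a log2 value of 1 probe set after RMA, the authors' normalization of the array intensities. In such bulk samples, fewer cells of a type and less RNA per cell cannot be told apart, and neither can blood RNA carried into a sorted fraction and RNA made by the sorted cells themselves.

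At this stage of mouse development the circulation is filled with primitive erythroid cells from the yolk sac, which are still nucleated, mature as a cohort in the blood stream, and carry haemoglobin made of embryonic globin chains. Their transcription factors, haem enzymes and membrane proteins are shared in large part with later red cells. Macrophages of the same age also come from the yolk sac, enter the limb bud mesenchyme on their own and express receptors such as that for colony stimulating factor, together with complement chains and lysosomal proteins.

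The labelled groups were checked with markers of other cell types. All 8 measured muscle progenitor genes were called higher in control GFP+ and in PAX3-FKHR GFP+ than in GFP- cells. Of all 45037 probe sets, 827 and 1261 were called higher in these comparisons. Of 8 limb mesenchyme genes, 7 and 8 were called lower, against 4.01% and 4.0% of all probe sets. Calls come from 1 limma fit over all probe sets and arrays, and needed an adjusted p (Benjamini-Hochberg) below 0.05 with a log2 difference of 0.5 or more in size. Medians of the arrays lay between 5.08 and 5.13, and the highest value of each array was 13.64 or more. Control GFP+ replicate 3 had the lowest weight when arrays were weighted by their fit to the model (0.24, against up to 2.69), and values that move without it are given below.

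Embryonic globin values were above the median of all values on every array, GFP+ arrays included, and they spread widely within the GFP- group. Hba-x encodes the embryonic alpha-type (zeta) chain. Its log2 value was 8.36, 9.86 and 7.31 on PAX3-FKHR GFP+ replicates 1, 2 and 3, 8.06, 10.30 and 6.30 on control GFP+ replicates 1, 2 and 3, and 6.76, 12.88 and 13.48 on GFP- replicates 1, 2 and 3. GFP- replicates 2 and 3 were above all other arrays, whereas GFP- replicate 1 was below all GFP+ arrays except control GFP+ replicate 3. The highest GFP- array exceeded the lowest by 105-fold for Hba-x.

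The embryonic beta-type chains are encoded by Hbb-bh1 and Hbb-y. The Hbb-bh1 value was 10.70, 11.87 and 9.89 in PAX3-FKHR GFP+, 10.06, 12.28 and 9.38 in control GFP+, and 8.63, 13.43 and 13.73 in GFP- samples, in the order of replicates 1, 2 and 3, which is kept from here on. For Hbb-y the values were 12.36, 12.84 and 11.58, then 11.71, 12.90 and 10.25, then 10.17, 13.55 and 13.74. In both genes GFP- replicate 1 was the lowest of all 9 arrays and GFP- replicates 2 and 3 the highest, so that all GFP+ arrays fell within the GFP- range. The upper Hbb-y values lie close to the highest values that any probe set reached, and the range of 11.8-fold within the GFP- group is therefore measured near the top of the scale. The probe sets used for both genes are of the type that can cross-hybridise with related transcripts (suffix _x_at), and the near-identical globin sequences leave the share of each gene uncertain. Other probe sets of the same genes, 2 for each, followed the ones used, with r of at least 0.952 over the 9 arrays.

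Adult globin could be followed in probe sets shared between genes only. The 1 probe set annotated to Hba-a1 alone was dim, at 2.59 to 3.40, below the median of all values on every array. A probe set shared by Hba-a1 and Hba-a2, the adult alpha chain genes, gave 9.32, 10.68 and 9.07 in PAX3-FKHR GFP+, 9.41, 11.46 and 8.97 in control GFP+, and 8.13, 13.29 and 13.73 in GFP- samples. A probe set shared by 4 adult beta globin genes, Hbb-b1 among them, gave 7.80, 8.44 and 7.13, then 7.39, 8.98 and 6.28, then 7.60, 11.15 and 12.41. In both, GFP- replicates 2 and 3 were above all other arrays, while GFP- replicate 1 was the lowest array for the alpha set and among the GFP+ arrays for the beta set. None of the 4 shared probe sets was called in any comparison.

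Genes of haemoglobin synthesis and of the red cell membrane had similarly wide ranges within the GFP- group, starting from lower levels. Alas2 encodes the first enzyme of erythroid haem synthesis. Its values were 5.71, 6.38 and 4.80 in PAX3-FKHR GFP+, 5.28, 6.53 and 5.18 in control GFP+, and 4.81, 9.48 and 11.40 in GFP- samples. GFP- replicate 1 lay at the level of the lowest GFP+ arrays, and GFP- replicate 3 was 96.2-fold above it. Slc4a1, the anion exchanger of the red cell membrane, gave 5.85, 6.27 and 5.52, then 5.31, 6.57 and 5.14, then 5.34, 9.32 and 10.78, a GFP- range of 43.5-fold. Rhag, the Rh-associated glycoprotein, was at 2.67, 3.18 and 2.66, then 2.84, 3.35 and 2.54, then 3.12, 5.38 and 7.71. Here too GFP- replicates 2 and 3 stood above every GFP+ array while GFP- replicate 1 was among them.

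Epb42 encodes a protein that ties the membrane to the spectrin skeleton, and its 2 probe sets disagree. The brighter one, used here by the rule, stayed between 3.74 and 4.53 on all arrays, below the median of all values. The dimmer one gave 2.43, 2.72 and 2.62, then 2.58, 2.75 and 2.39, then 2.69, 4.90 and 7.08, an order like that of Rhag. One of the other 2 probe sets of Slc4a1 stayed between 3.25 and 3.63, and the other followed the one used (r = 0.976). The receptor for erythropoietin, Epor, had a narrower range in the same order, with GFP- values of 5.90, 7.03 and 7.70 against 5.66 to 6.26 on the 6 GFP+ arrays.

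The erythroid transcription factors differed in 1 respect from the globins, in that GFP- replicate 1 was not low. Klf1, which activates globin and membrane genes, was at 4.95, 5.34 and 5.14 in PAX3-FKHR GFP+, 5.09, 5.68 and 4.75 in control GFP+, and 6.04, 7.80 and 8.88 in GFP- samples. Nfe2, the large subunit of a globin enhancer-binding factor, gave 3.76, 4.22 and 4.15, then 4.02, 4.27 and 4.06, then 4.87, 5.52 and 6.80. Gata1, the factor required for red cell and megakaryocyte formation, gave 4.74, 5.31 and 5.0, then 5.21, 5.40 and 4.74, then 5.57, 6.83 and 7.86. In each of these 3 genes every GFP- array was above every GFP+ array, which held for 7.58% of all probe sets. Hemgn, a nuclear protein of haematopoietic cells, behaved like the globins instead, at 4.25, 5.78 and 3.68, then 3.86, 6.09 and 3.54, then 3.53, 8.61 and 10.65. Its GFP- range of 139-fold was the largest of the 30 members, and GFP- replicate 1 was the lowest of all arrays.

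**Figure D1:**
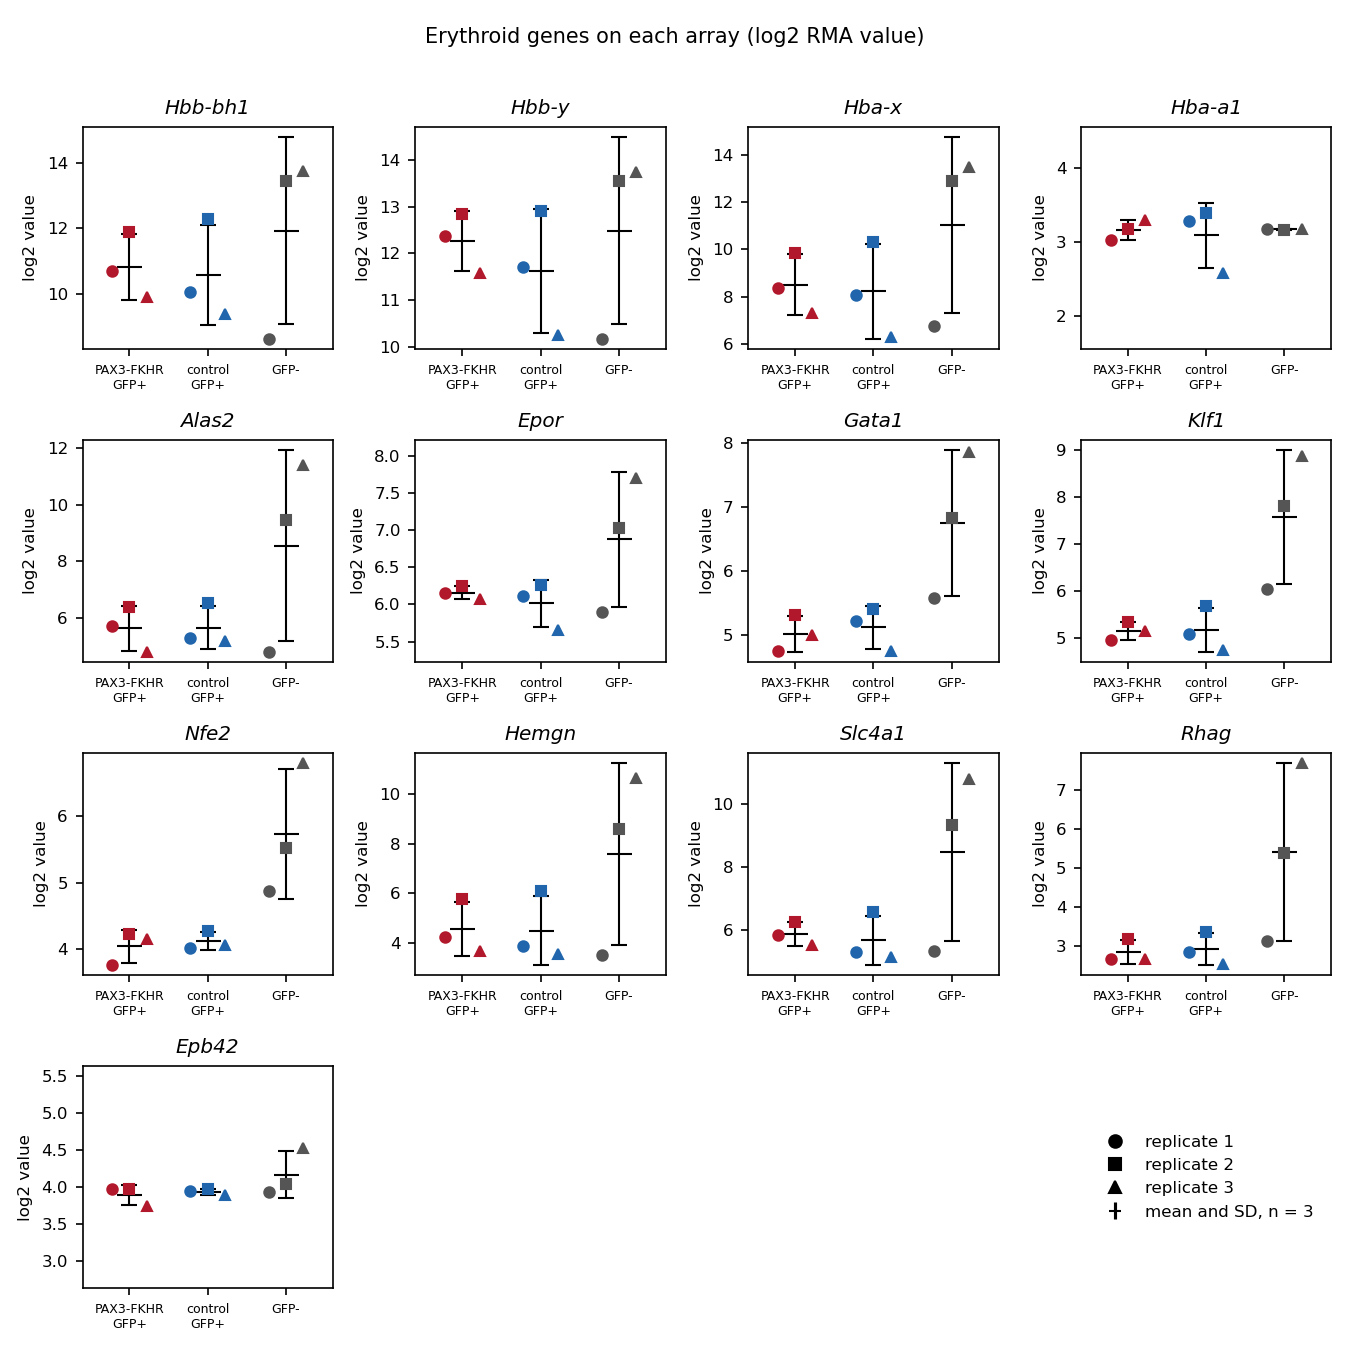
Log2 value (y axis) of the 13 erythroid genes with a probe set of their own in the 3 groups (x axis). Each point is 1 array, its shape gives the replicate number, and bars give the mean and SD of 3 arrays. GFP- replicates 2 and 3 lie above all GFP+ arrays in 12 of 13 genes, and GFP- replicate 1 is the lowest of all 9 arrays in Hbb-bh1, Hbb-y and Hemgn.

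Since these genes moved together across arrays, the 250 bases before the start of transcription were read for letters of the DNA sites of blood factors. RefSeq promoters (build GRCm38.p6) were at hand for 10 of the 13 erythroid and 11 of the 17 macrophage genes. The GATA letters searched were AGATAA or TGATAA or AGATAG or TGATAG, on both strands. They occur in 9 of the 10 erythroid promoters and 3 of the 11 macrophage promoters, each member counted at its first listed start. This compares with 26.5% of all 32851 promoters of this length, where every listed start of a gene is counted. A second listed start of Ptprc also has the GATA letters, at 100 and 25 bases before it. The erythroid promoter without them was that of Gata1 itself. The letters GAGGAA, the core of sites of PU.1, the product of the member Spi1, occur on either strand in 4 of the 10 erythroid and 8 of the 11 macrophage promoters, against 23.3% of all. CCACACCC, a site of the Klf1 family, was in no promoter of a member on either strand (3.2% of all), and TATAAA on the strand of the gene was in 2 erythroid promoters and 1 macrophage promoter (7.6% of all). A match describes letters only and is not evidence that a factor binds. The following 4 erythroid promoters are shown because their genes had the widest array range (Hemgn, Hba-x, Alas2) or passed the test in both comparisons with GFP- cells (Klf1). Capitals mark the GATA letters or their complement, and each is written 5′ to 3′ on the strand of its gene. They lie at chr11:32276350-32276599, plus strand (Hba-x), chrX:150547167-150547416, plus strand (Alas2), chr8:84901732-84901981, plus strand (Klf1) and chr4:46404184-46404433, minus strand (Hemgn).
Hba-x: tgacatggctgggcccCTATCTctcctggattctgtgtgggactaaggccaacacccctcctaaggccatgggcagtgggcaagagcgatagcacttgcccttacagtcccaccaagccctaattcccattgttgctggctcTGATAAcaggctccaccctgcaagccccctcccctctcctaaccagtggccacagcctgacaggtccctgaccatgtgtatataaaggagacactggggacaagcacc
Alas2: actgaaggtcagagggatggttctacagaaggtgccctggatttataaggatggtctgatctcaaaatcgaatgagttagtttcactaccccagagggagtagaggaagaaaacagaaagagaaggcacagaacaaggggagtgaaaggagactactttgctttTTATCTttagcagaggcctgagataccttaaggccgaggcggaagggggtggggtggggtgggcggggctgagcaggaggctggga
Klf1: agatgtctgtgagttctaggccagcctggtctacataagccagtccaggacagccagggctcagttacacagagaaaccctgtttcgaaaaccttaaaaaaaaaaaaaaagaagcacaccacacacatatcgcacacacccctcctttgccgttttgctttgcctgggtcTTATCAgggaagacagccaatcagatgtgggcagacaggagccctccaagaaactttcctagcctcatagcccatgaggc
Hemgn: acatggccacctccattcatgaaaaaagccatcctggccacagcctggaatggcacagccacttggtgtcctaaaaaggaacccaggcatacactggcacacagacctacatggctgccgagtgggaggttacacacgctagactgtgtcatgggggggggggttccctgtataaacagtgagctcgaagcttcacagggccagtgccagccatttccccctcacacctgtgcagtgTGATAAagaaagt
The Hba-x promoter holds these letters at 2 places, beginning 234 and 108 bases before the start, and the other 3 hold them once, 86 bases before the start in Alas2, 80 in Klf1 and 13 in Hemgn.

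Against this spread, the 2 GFP+ groups could not be told apart in any erythroid gene. Of the 13 genes, 0 were called between PAX3-FKHR GFP+ and control GFP+ cells by limma, where 0.537% of all probe sets were called, and 0 had an unadjusted p under 0.05 (7.17% of all). The local pooled error test, the study's own method as rebuilt here, also called 0. Differences ran from -0.10 to 0.64 with a median of 0.07, beside a median of -0.01 over all probe sets. The smallest p was that of Hbb-y, which was higher by 0.64 in PAX3-FKHR GFP+ cells (SE 0.90, limma adjusted p = 0.9). Its 95% confidence interval ran from -1.35 to 2.63, and that of Hba-x from -3.24 to 3.82, so that differences of several-fold in either direction lie within them. These intervals take their error from all 3 groups, so their width does not measure the spread of the GFP+ arrays alone. The SD of Hba-x was 1.28 in PAX3-FKHR GFP+, 2.00 in control GFP+ and 3.72 in GFP- samples. Between GFP+ arrays of equal replicate number, 1, 2 and 3, Hba-x differed by 0.30, -0.44 and 1.01. Without control GFP+ replicate 3 the difference of Hbb-y was -0.04 and the median of the 13 genes -0.25. None of the 13 genes was higher, and none lower, in PAX3-FKHR GFP+ cells in all 3 pairs of equal replicate number. Of all probe sets, 13.2% were higher and 19.6% lower in all 3 pairs.

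In all 13 erythroid genes the mean of control GFP+ was below that of GFP- cells, and 2 of them passed the test. Klf1 was lower by 2.40 on the log2 scale (log2 difference -2.40, SE 0.56, limma adjusted p = 0.0309), or 5.28-fold. Nfe2 fell by 1.61 (SE 0.38, adjusted p = 0.0321). Across all probe sets 4.01% were called lower in this comparison. The median difference of the 13 genes was -1.64, beside 0.06 over all probe sets, and 7 of the 13 had an unadjusted p under 0.05, against 21.7% of all probe sets. Gata1, whose arrays did not overlap either, differed by -1.64 (SE 0.45, adjusted p = 0.0624).

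The same GFP- arrays served for the comparison with PAX3-FKHR GFP+ cells, so it is not independent of the one above. In it 3 of the 13 genes were called lower, against 4.0% of all probe sets. They were Nfe2 (log2 difference -1.68, SE 0.38, limma adjusted p = 0.0239), Klf1 (-2.43, SE 0.56, adjusted p = 0.0264) and Gata1 (-1.74, SE 0.45, adjusted p = 0.0464). The Gata1 call was lost with renewed quantile normalization (adjusted p = 0.0502), without the intensity trend (0.0607) and with only the 6 arrays compared in the fit (0.0737). The median difference was -1.74, beside 0.04 over all probe sets, and 6 of the 13 had an unadjusted p under 0.05, against 20.2% of all. The differences of Hemgn, Alas2, Slc4a1, Hba-x and Rhag were larger, from -2.49 to -3.10 against control GFP+ and from -2.53 to -3.03 against PAX3-FKHR GFP+ cells, but with standard errors of 0.85 to 1.59 none passed the test. The local pooled error test, which takes its error from probe sets of like level and not from the gene's own spread, called 10 and 11 of the 13 genes, against 5.38% and 8.08% of all probe sets.

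Which erythroid genes passed depended on single arrays. Without GFP- replicate 1, 9 of 13 genes were called lower in each comparison with GFP- cells, against 2.51% of all probe sets for control GFP+ and 2.56% for PAX3-FKHR GFP+ cells. They were Hba-x, Alas2, Epor, Gata1, Klf1, Nfe2, Hemgn, Slc4a1 and Rhag. Hemgn then differed by -5.13 from control GFP+ (SE 0.88, limma adjusted p = 0.0165) and Slc4a1 by -4.38 (SE 0.50, adjusted p = 0.00282). Without GFP- replicate 2, 0 were called against control GFP+ (2.94% of all probe sets) and 0 against PAX3-FKHR GFP+ cells (2.82%). Nfe2 alone was called without GFP- replicate 3, in both comparisons (2.57% and 3.16% of all). Leaving out PAX3-FKHR GFP+ replicate 1, 2 or 3 left 0 called, against 3.43%, 1.86% and 2.28% of all probe sets. The Klf1 difference was then -2.34, -2.53 and -2.43, beside -2.43 with all arrays. Its call was thus lost with little change in size, in fits with fewer arrays. Without control GFP+ replicate 1 or 3, 0 were called (3.01% and 4.18% of all), and without replicate 2 only Klf1 was (2.38%).

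**Figure D2:**
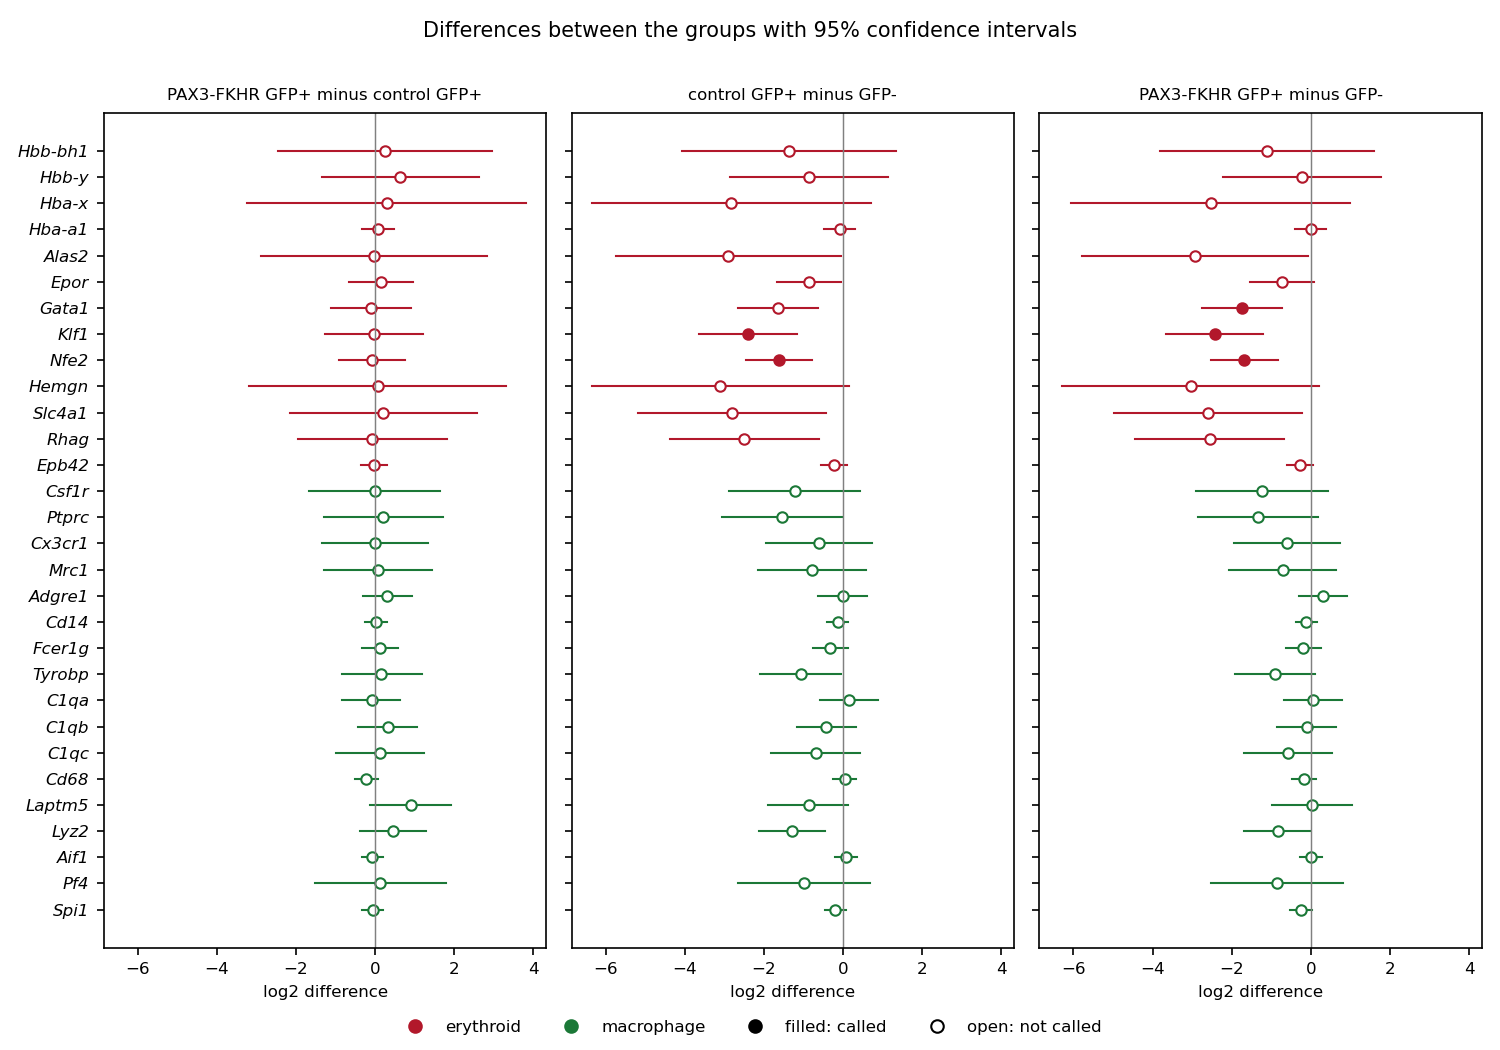
Log2 difference (x axis) of each of the 30 genes (y axis) in the 3 comparisons, with its 95% confidence interval from the limma fit. Red marks erythroid and green macrophage genes, and filled points passed the test. Klf1 and Nfe2 are filled in both comparisons with GFP- cells and Gata1 in that with PAX3-FKHR GFP+ cells, while no point is filled between the GFP+ groups.

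The list mean shows the array pattern in 1 value, the mean over the 13 genes of the deviation from each gene's own mean over 9 arrays. It was -0.64, -0.03 and -0.92 for PAX3-FKHR GFP+, -0.77, 0.17 and -1.29 for control GFP+, and -0.99, 1.71 and 2.74 for GFP- samples. GFP- replicate 1 thus lay below 5 of the 6 GFP+ arrays, all but control GFP+ replicate 3, and GFP- replicates 2 and 3 were the 2 highest arrays. In 12 of the 13 genes, all but Hba-a1, GFP- replicate 3 was above replicate 2 and replicate 2 above replicate 1, an order found in 18.3% of all probe sets. GFP- replicates 2 and 3 were above all 6 GFP+ arrays in the same 12 genes, against 10.1% of all probe sets.

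Other cell type markers moved with the GFP- arrays too. The mean of 9 limb ectoderm genes, all 9 of them measured, was 0.13, 0.96 and 1.43 on GFP- replicates 1, 2 and 3, while the GFP+ arrays had -0.89 to 0.02. That of 12 endothelial genes, all measured, was -0.75, -0.12 and 0.29 in the GFP- group, while the GFP+ arrays had -0.30 to 0.91. The 8 limb mesenchyme genes, all measured, had 1.44, 1.42 and 1.15 in the GFP- group and -1.11 to -0.43 in the GFP+ groups. Ectoderm and endothelial genes thus had the same order of GFP- arrays as the erythroid genes, and mesenchyme genes did not. None of these genes can be read as absent, since RMA values have no true zero, and their part in the erythroid result was not tested.

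Further erythroid genes outside the members, 31 measured of 36 listed, had the same order of GFP- arrays in their mean, over a smaller range. It ran from -0.44 to -0.07 over the GFP+ arrays, and GFP- replicates 1, 2 and 3 had -0.28, 0.66 and 1.39. In control GFP+ against GFP- cells 26 of 31 were lower and 1 was called, a share no higher than the 4.01% of all probe sets called lower. This was Lmo2, a partner of the Gata1 and Tal1 complex that endothelial and limb mesenchyme cells also express. Lmo2 was at 6.62, 6.90 and 6.20, then 7.41, 7.70 and 7.22, then 8.84, 8.89 and 8.87, a difference of -1.43 (SE 0.19, limma adjusted p = 0.00247). Its 3 GFP- arrays were nearly equal. In PAX3-FKHR GFP+ against GFP- cells 25 of 31 were lower and 2 were called (4.0% of all probe sets called lower), Lmo2 (-2.30, adjusted p = 8.07e-05) and Bcl11a, a globin repressor that neurons also express (-0.93, adjusted p = 0.0435). Between the GFP+ groups 0 of 31 were called, with 4 at an unadjusted p under 0.05 (7.17% of all). The smallest of these were Lmo2 (-0.87, adjusted p = 0.126) and Gypc, a glycophorin of broad expression (-0.64, adjusted p = 0.17).

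Macrophage transcripts had another pattern. They were close to level among the 3 GFP- arrays, unlike most erythroid genes, and spread over the GFP+ arrays. The range of the list mean over the GFP+ arrays was 1.52, beside 1.46 for the erythroid genes, and over the GFP- arrays it was 0.35, beside 3.74. Csf1r, the receptor for colony stimulating factor that macrophages depend on, was at 7.82, 9.0 and 5.74 in PAX3-FKHR GFP+, 7.88, 8.55 and 6.17 in control GFP+, and 8.65, 8.78 and 8.83 in GFP- samples. In both GFP+ groups replicate 2 was highest and replicate 3 lowest, and only PAX3-FKHR GFP+ replicate 2 was above the GFP- arrays. The GFP- arrays differed by 1.13-fold and the 6 GFP+ arrays by 9.59-fold. Other probe sets of Csf1r spanned less over the GFP+ arrays, from 5.75 to 7.41 and from 6.85 to 7.41, with r of 0.922 and 0.886 to the one used. The second probe sets of Ptprc and Cx3cr1 were dim and did not follow (r = 0.053 and -0.627).

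Other surface receptors followed Csf1r. Ptprc, the leukocyte common antigen CD45, was at 6.08, 7.05 and 3.93, then 5.71, 6.20 and 4.52, then 6.66, 6.91 and 7.49. The fractalkine receptor Cx3cr1 gave 6.49, 7.59 and 4.78, then 6.66, 6.84 and 5.36, then 6.88, 6.66 and 7.11. For Mrc1, the macrophage mannose receptor, the values were 6.43, 7.38 and 4.80, then 6.21, 7.09 and 5.11, then 6.56, 6.95 and 7.23. PAX3-FKHR GFP+ replicate 3 was the lowest of all arrays in these 3 genes and in Csf1r. Adgre1, which encodes the F4/80 antigen, ranged from 5.31 to 6.59 on the GFP+ and from 5.60 to 6.08 on the GFP- arrays. Cd14, a co-receptor for lipopolysaccharide that embryonic macrophages need not carry, stayed between 4.82 and 5.26.

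In the signalling adaptors and complement chains the order of the GFP+ arrays was kept, at a smaller range than in Csf1r, Ptprc, Cx3cr1 and Mrc1. Tyrobp, an adaptor of activating receptors, gave 5.51, 6.63 and 4.82, then 5.52, 6.28 and 4.66, then 6.54, 6.78 and 6.36. The related adaptor Fcer1g ran from 5.03 to 5.87. The C1q chains of complement had their highest value on replicate 2 and their lowest on replicate 3 of both GFP+ groups, with C1qc at 5.52, 6.21 and 4.63, then 5.69, 6.22 and 4.09, then 5.98, 5.94 and 6.15. C1qa and C1qb were at 4.38 to 5.75 and 6.26 to 7.83 over all arrays.

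Lysozyme, encoded by Lyz2, was at 5.57, 6.60 and 5.36 in PAX3-FKHR GFP+, 5.56, 6.04 and 4.57 in control GFP+, and 6.75, 6.61 and 6.69 in GFP- samples. It was 1 of 2 macrophage genes of the 17 with every GFP- array above every GFP+ array (7.58% of all probe sets), the other being Spi1, the gene of the PU.1 factor, at 5.12 to 5.26 in GFP+ and 5.30 to 5.63 in GFP- samples. Pf4, a chemokine of platelets and of yolk sac derived macrophages, had 7.10, 7.67 and 6.15, then 6.85, 8.45 and 5.23, then 6.78, 7.87 and 8.84. It was the macrophage gene with the widest GFP- range, 4.15-fold, and the only one over 2-fold there, with the array order of the erythroid genes in the GFP- group. Megakaryocyte genes, 7 measured of 9, had means of -0.14, 0.16 and 0.70 on these arrays, and their part in the Pf4 values was not tested. Cd68 and Aif1, markers of macrophage lysosomes and cytoskeleton, stayed between 4.82 and 5.32 and between 3.45 and 3.92, so their probe sets did not follow the others.

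**Figure D3:**
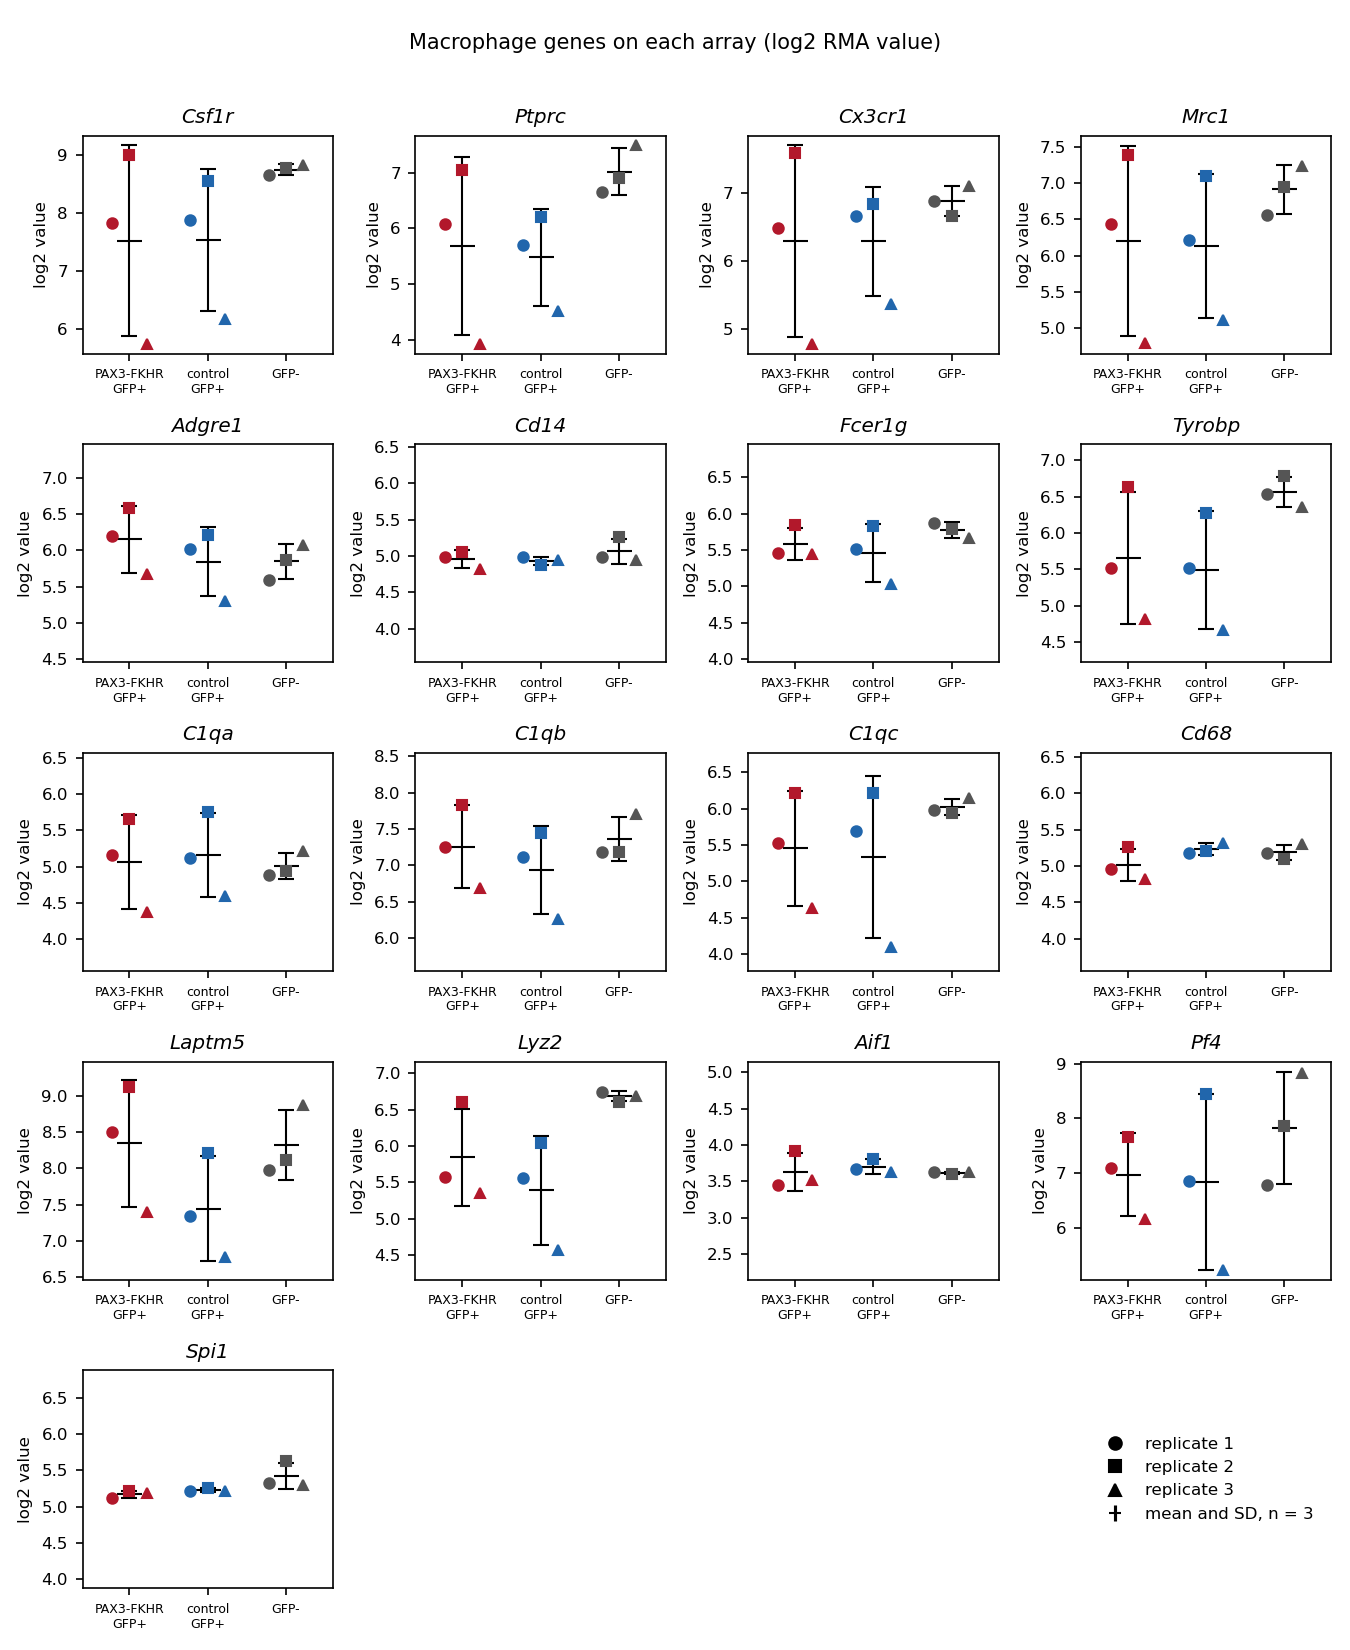
Log2 value (y axis) of the 17 macrophage genes in the 3 groups (x axis), with arrays, means and SD drawn as for the erythroid genes. In 13 of the 17 genes replicate 2 is highest and replicate 3 lowest in both GFP+ groups, and the GFP- arrays lie within 2-fold of each other in all genes but Pf4.

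Promoters of 2 macrophage genes are shown for the GAGGAA letters, Mrc1 because its values followed Csf1r closely and it holds them at 3 places, and Laptm5 because it had the largest difference between the GFP+ groups. Capitals mark GAGGAA or its complement TTCCTC. They lie at chr2:14229164-14229413, plus strand (Mrc1) and chr4:130913066-130913315, plus strand (Laptm5), GRCm38.p6.
Mrc1: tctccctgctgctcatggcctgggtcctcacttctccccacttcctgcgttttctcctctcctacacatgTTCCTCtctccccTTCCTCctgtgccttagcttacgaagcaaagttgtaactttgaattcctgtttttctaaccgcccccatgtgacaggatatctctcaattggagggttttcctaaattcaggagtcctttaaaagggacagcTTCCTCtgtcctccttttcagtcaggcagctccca
Laptm5: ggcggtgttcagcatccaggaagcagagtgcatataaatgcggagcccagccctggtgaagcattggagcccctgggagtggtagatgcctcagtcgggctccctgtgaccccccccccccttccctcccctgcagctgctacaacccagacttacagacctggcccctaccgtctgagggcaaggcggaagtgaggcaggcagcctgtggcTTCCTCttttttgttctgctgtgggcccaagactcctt
The letters begin 180, 167 and 35 bases before the start of Mrc1 and 38 bases before that of Laptm5.

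Between the GFP+ groups 0 of 17 macrophage genes were called by limma (0.537% of all probe sets), and 0 had an unadjusted p under 0.05 (7.17% of all). The median difference was 0.12, and -0.17 without control GFP+ replicate 3. Laptm5, a lysosomal membrane protein of haematopoietic cells, had the smallest p, at 8.50, 9.12 and 7.40 in PAX3-FKHR GFP+ and 7.34, 8.21 and 6.78 in control GFP+ cells. It was higher by 0.90 in PAX3-FKHR GFP+ cells (SE 0.46, 95% confidence interval -0.12 to 1.91, limma adjusted p = 0.752) and higher in all 3 pairs of equal replicate number, and by 0.56 without control GFP+ replicate 3. The local pooled error test called it, and no other macrophage gene (difference 1.16, adjusted p = 0.0122), where it called 0.799% of all probe sets. Its other 4 probe sets differed by -0.20 to 0.24, so the difference belongs to 1 probe set of 5. Adgre1, C1qb and Lyz2 were also higher in all 3 pairs, by means of 0.31, 0.32 and 0.45, as were 13.2% of all probe sets. Spi1 was lower in all 3 pairs, by 0.03 to 0.09, as were 19.6% of all probe sets.

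In 14 of 17 macrophage genes the mean of control GFP+ was below that of GFP- cells, with a median difference of -0.60 over the 17, and 0 were called (4.01% of all probe sets called lower). The median was -0.13 without control GFP+ replicate 3, -0.88 without control GFP+ replicate 2 and -0.26 with array weights. The smallest p was that of Lyz2, with a difference of -1.30 (SE 0.38, limma adjusted p = 0.0734), which was -0.89 without control GFP+ replicate 3 (adjusted p = 0.146). Of the 17, 3 had an unadjusted p under 0.05, below the share of 21.7% among all probe sets. With the replicate number as a block over all arrays, 2 were called lower, Lyz2 (adjusted p = 0.0275) and Tyrobp (adjusted p = 0.033), against 5.14% of all probe sets, but the GFP- arrays did not pair by number, and the block on the 6 arrays compared called 0 (Lyz2 adjusted p = 0.107). Without control GFP+ replicate 2, Lyz2 was called (adjusted p = 0.0431). The local pooled error test called 4 (5.38% of all probe sets), namely Ptprc, Tyrobp, Lyz2 and Pf4. In PAX3-FKHR GFP+ against the same GFP- arrays, 13 of 17 were lower with a median of -0.25, and 0 were called (4.0% of all probe sets called lower). Lyz2 again had the smallest p (-0.84, SE 0.38, limma adjusted p = 0.244), the only one of 17 under 0.05 before adjustment, against 20.2% of all probe sets. The local pooled error test called 4 here too (8.08% of all), with Csf1r in place of Pf4.

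The mean deviation of the 17 macrophage genes was -0.05, 0.60 and -0.85 for PAX3-FKHR GFP+, -0.13, 0.34 and -0.92 for control GFP+, and 0.17, 0.32 and 0.52 for GFP- samples. PAX3-FKHR GFP+ replicate 2 was thus above all GFP- arrays and control GFP+ replicate 2 among them, and replicate 3 of both groups was lowest. The order replicate 2, 1, 3 in both GFP+ groups was found in 13 of 17 macrophage and 9 of 13 erythroid genes, against 5.47% of all probe sets. Other myeloid genes, 29 measured of 30, had -0.07, 0.35 and -0.47, then -0.12, 0.18 and -0.56, then 0.16, 0.22 and 0.32, the same order within each group. Among these 29 genes 2 were called in control GFP+ against GFP- cells, both lower in control GFP+ (4.01% of all probe sets called lower). They were Rac2 (-0.86, limma adjusted p = 0.0424) and Ncf4 (-0.88, adjusted p = 0.0457), both parts of the phagocyte oxidase system. Against PAX3-FKHR GFP+ cells 2 of the 29 were called, where 4.0% of all probe sets were called lower. They were Ncf4 (-0.85, limma adjusted p = 0.048) and Mertk, a receptor for apoptotic cells with wide expression (-1.44, adjusted p = 0.00745).

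**Figure D4:**
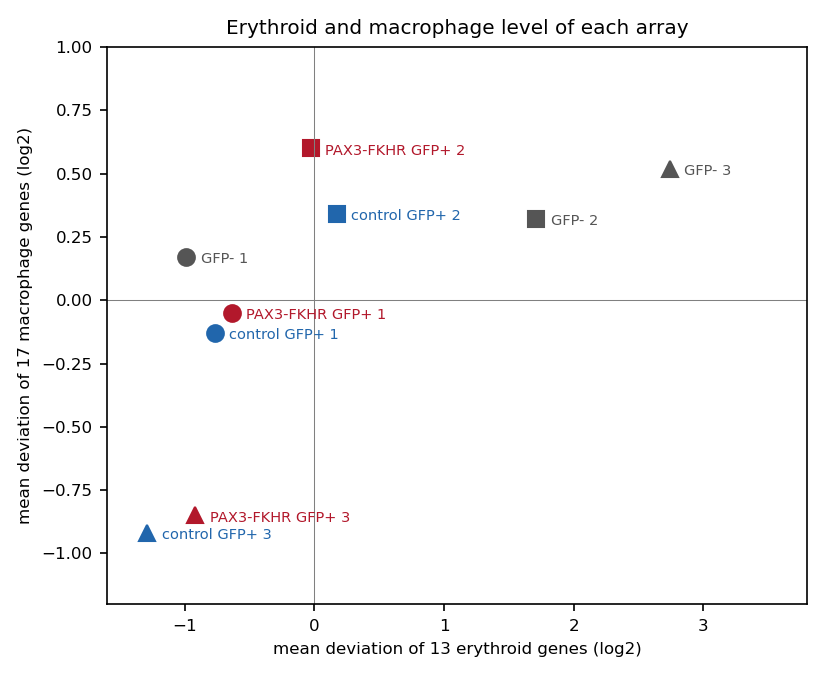
Mean log2 deviation of 13 erythroid genes (x axis) and of 17 macrophage genes (y axis) on each of the 9 arrays, labelled by group and replicate number. GFP- replicates 2 and 3 stand apart to the right at 1.71 and 2.74, and GFP- replicate 1 lies to the left at -0.99.

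The 2 sets of genes therefore ordered the arrays differently. GFP- replicate 1 had nearly the lowest erythroid mean (-0.99) but a macrophage mean of 0.17, above that of 4 of the 6 GFP+ arrays. The median range within the GFP- group was 3.56 for the erythroid genes and 0.33 for the macrophage genes, beside 0.26 for all probe sets. Within PAX3-FKHR GFP+ it was 0.57 and 1.28, beside 0.24, and within control GFP+ 0.94 and 1.43, beside 0.33. Spread within groups, as the residual SD of the fit, had a median of 1.36 for erythroid and 0.58 for macrophage genes, beside 0.17 for all probe sets. It was at or above the 95th percentile of all probe sets (0.44) in 11 of 13 erythroid genes, all but Hba-a1 and Epb42, and in 11 of 17 macrophage genes, all but Adgre1, Cd14, Fcer1g, Cd68, Aif1 and Spi1.

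**Figure D5:**
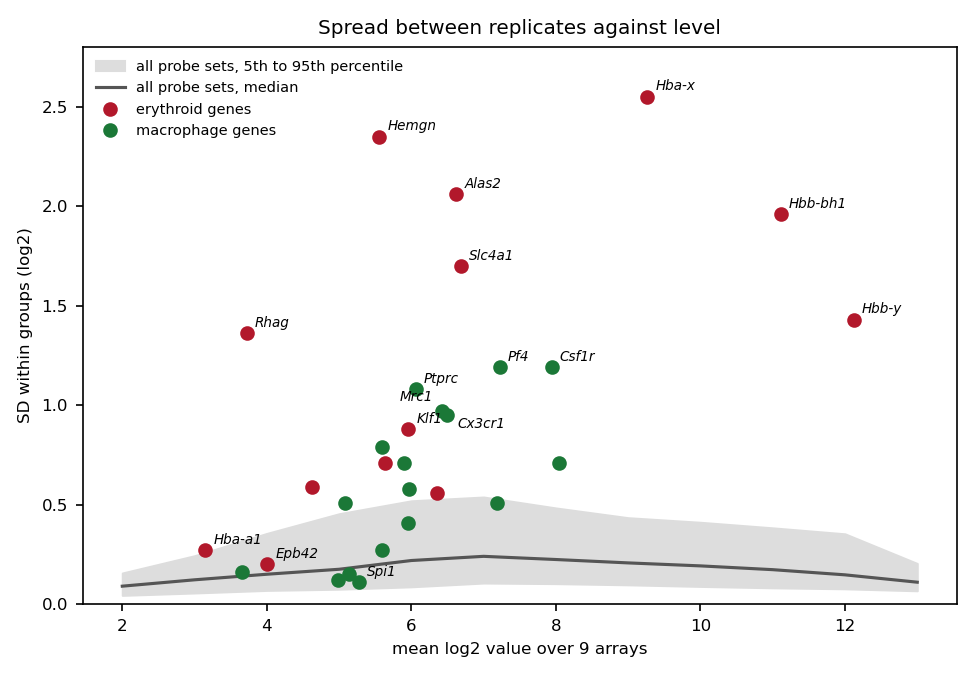
SD within groups on the log2 scale (y axis) against the mean log2 value over 9 arrays (x axis) for the 30 genes, with the median (line) and the 5th to 95th percentile (grey) of all probe sets of like level. Hba-x has the highest SD (2.55), and most erythroid and macrophage genes lie above the grey band.

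Genes outside all lists were ranked by the correlation of their brightest probe set with the mean of the erythroid or of the macrophage genes over the 9 arrays, as a description among 18038 genes. For the erythroid mean the closest were the metallothioneins Mt2 (r = 0.992) and Mt1 (r = 0.987), followed by Mgst3, Ell2, Hebp1, Ctse, Slc38a5, Acp5, Slc39a8 and Fam241a (r of 0.984 to 0.968). Mt1 was at 5.97, 6.93 and 5.33, then 6.15, 7.18 and 5.68, then 5.90, 8.81 and 9.69. Its GFP- replicate 1 lay within the range of the GFP+ arrays, and GFP- replicates 2 and 3 lay above it. For the macrophage mean the closest were Elovl4 (r = 0.980) and Apoe (r = 0.968), then Dync1i2, Tm7sf3, Ms4a6b, Sat1, Evi2a, Ypel2, Tmub2 and Ppp1r26 (r of 0.963 to 0.950). Ms4a6b, a gene of the MS4A membrane protein family of leukocytes, gave 5.68, 6.55 and 3.66, then 5.37, 5.99 and 3.96, then 5.43, 5.61 and 6.01. Apoe, the apolipoprotein that tissue macrophages secrete, ran from 5.84 to 7.89. All these correlations share the same 9 arrays, and the erythroid one has GFP- replicates 2 and 3 as its highest points.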

How the data were processed

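RNA of sorted forelimb bud cells, amplified in 2 cycles, was measured on 9 Affymetrix mouse expression arrays. The authors deposited log2 values per probe set, made with RMA, which corrects background, brings arrays to a common intensity distribution and summarises the probes of a set. The RMA version is not given in the sources used here. The study discarded probe sets called absent, and those calls were not used here. After 64 array controls were set aside, 45037 probe sets were tested, of which 34945 carry 1 gene symbol in the platform annotation, 932 several and 9160 none. Precision is limited by the number of arrays, 3 a group, and p-values measure only the spread between these pooled samples.

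A single limma 3.58.1 model (R 4.3.3), whose prior variance followed the mean level, held all arrays and gave the 3 comparisons. Calls needed a Benjamini-Hochberg adjusted p under 0.05 over all probe sets and an absolute log2 difference of at least 0.5. All members are named. From 10 further marker lists up to 4 genes with the smallest p are named, and the 10 genes most correlated with each list mean. Members and lists were chosen with earlier results of these data known. A low-value filter was run as an alternative (at least 3 arrays at or above 5.11, the median of all values). It kept 24 of the 30 members and dropped Hba-a1, Nfe2, Rhag, Epb42, Cd14 and Aif1. Alternatives covered scaling, trend, array weights, thresholds, probe set choice, the study's local pooled error test (100 intensity bins, spline with 10 degrees of freedom), the replicate block and each array left out. Deviations from group means of equally numbered PAX3-FKHR GFP+ and control GFP+ arrays correlated by 0.164, 0.472 and 0.287, so the numbers, which come from the sample titles, were taken as pairs for these groups. The main fit did not use these pairs. The GFP- arrays did not pair. The scripts were tested on simulated data.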

Additional observations from a re-analysis of the deposited data

How the results depend on the processing

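No gene reversed a call. Of 1779 results of single genes under the alternatives, 1706 kept their side of the threshold, 29 lost and 44 gained a call, and 106 differed in sign while called in neither setting. For control GFP+ against GFP- cells, the 2 erythroid calls became 0 with the 6 arrays compared alone, also with a replicate block, and 10 by the local pooled error test, which takes its error from probe sets of like level. The 0 macrophage calls became 1 with array weights, 2 with a replicate block on all arrays and 4 by the local pooled error test. For PAX3-FKHR GFP+ against GFP- cells, that test called 11 erythroid genes (3 in the main test) and 4 macrophage genes (0). Between the GFP+ groups it called 1 macrophage gene. The local pooled error test called 5.38%, 8.08% and 0.799% of all probe sets in these 3 comparisons. The pairing by replicate block changed no count between the GFP+ groups, which stayed at 0, nor the 3 erythroid and 0 macrophage calls for PAX3-FKHR GFP+ against GFP- cells. With the block on the 6 arrays compared, the limma adjusted p of Laptm5 between the GFP+ groups was 0.0555, against 0.752 in the main fit.

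With each array left out in turn, erythroid calls ran from 0 to 9 in both comparisons with GFP- cells, 9 of them without GFP- replicate 1. Macrophage calls ran from 0 to 1 for control GFP+ against GFP- cells and stayed at 0 elsewhere. The erythroid median against control GFP+ was -3.01 without GFP- replicate 1. The Gata1 call against PAX3-FKHR GFP+ cells was lost under 3 of the other settings, and the macrophage median against control GFP+ ran from -0.88 to -0.13 with 1 array left out. The causes were not tested. Using shared adult globin probe sets, an alternative chosen after seeing the data, added no call.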

Other observations

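Genes of other blood lineages were also measured. Mpo, the peroxidase of granulocyte precursors, was at 4.79, 4.89 and 4.62 in PAX3-FKHR GFP+, 4.92, 5.15 and 4.23 in control GFP+, and 7.71, 7.76 and 7.41 in GFP- samples, in the order of replicates 1, 2 and 3. Its 3 GFP- arrays lay close together, unlike the erythroid genes on the same arrays. It was lower by 2.86 in both GFP+ groups (SE 0.22, limma adjusted p = 8.61e-05 for control GFP+ and 4.24e-05 for PAX3-FKHR GFP+). Prtn3, a protease of the same granules, gave 6.07, 6.18 and 6.14, then 6.42, 6.52 and 6.37, then 7.70, 7.82 and 7.14, with differences of -1.11 (limma adjusted p = 0.00544) and -1.42 (adjusted p = 0.000994). These were the 2 genes called of 10 granulocyte and mast cell genes in each comparison with GFP- cells. Across all probe sets 4.01% were called lower for control GFP+ and 4.0% for PAX3-FKHR GFP+ cells. Elane and Ctsg, on the same list, did not follow. Their means in PAX3-FKHR GFP+, control GFP+ and GFP- samples were 4.07, 3.92 and 3.81 for Elane and 4.23, 4.12 and 4.22 for Ctsg. S100a8 and S100a9, abundant in mature neutrophils, stayed between 3.47 and 4.70 on all arrays and were not called.

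Of 6 blood progenitor genes, 2 were called lower in both GFP+ groups than in GFP- cells. Among all probe sets this share was 4.01% for control GFP+ and 4.0% for PAX3-FKHR GFP+ cells. Mecom, which limb mesenchyme also expresses, differed by -1.19 from control GFP+ and -1.53 from PAX3-FKHR GFP+ cells (limma adjusted p = 0.00653 and 0.00116). The receptor Kit differed by -0.76 and -0.85 (limma adjusted p = 0.0369 and 0.0196). Of 7 measured megakaryocyte genes, only Itga2b, an integrin subunit of platelets, was called in control GFP+ against GFP- cells (-0.89, limma adjusted p = 0.034). In this comparison 4.01% of all probe sets were called lower. The difference of Itga2b from PAX3-FKHR GFP+ cells was -0.75 (adjusted p = 0.0614). None of 5 measured lymphocyte genes was called by limma in any comparison. At an unadjusted p under 0.05, 1 differed between the GFP+ groups (7.17% of all probe sets). Against GFP- cells 0 did for control GFP+ (21.7%) and 1 for PAX3-FKHR GFP+ cells (20.2%).

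All 12 endothelial genes had a higher mean in control GFP+ than in the GFP- group, with a median of 0.26, and none was called. Of all 45037 probe sets, 27473 had a higher mean in control GFP+, with a median over all of 0.06. The largest difference was that of Cldn5, a tight junction protein, at 7.28, 8.26 and 7.10 in control GFP+ and 5.42, 6.45 and 6.69 in GFP- samples (1.36, SE 0.37, limma adjusted p = 0.0599). Of the 12, 2 had an unadjusted p under 0.05, against 21.7% of all probe sets. The mean deviation of the 12 genes was 0.08, 0.91 and -0.17 on control GFP+ replicates 1, 2 and 3, so replicate 2 stood out. In PAX3-FKHR GFP+ against GFP- cells 8 of the 12 had a higher mean, with a median of 0.03, and none was called. Of all 45037 probe sets, 26063 had a higher mean in PAX3-FKHR GFP+, with a median of 0.04. Of 9 limb ectoderm genes, 2 were called in control GFP+ against GFP- cells, Perp (-2.16, limma adjusted p = 0.0359) and Cdh1 (-1.81, adjusted p = 0.0425). Against PAX3-FKHR GFP+ cells the 2 called were the keratins Krt18 (-1.26, limma adjusted p = 0.0153) and Krt8 (-1.55, adjusted p = 0.02). Of all probe sets, 4.01% and 4.0% were called lower in these 2 comparisons.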
